A study of Mus musculus with 27 samples.

Results

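The genes of cholesterol and fatty acid synthesis were followed in mouse kidney 24 h after warm ischemia of graded length, and 8 of the 19392 genes in the expression table were taken by symbol: Hmgcs1, Idi1, Fdft1, Sqle, Insig1, Fasn, Scd1 and Scd2. RNA sequencing was done on the left kidneys of 27 wild-type C57BL/6 mice, 3 mice at each of 9 ischemia times. In the study's methods the mice lay on a 37°C plate and the right kidney was removed, with no separate account of the sham mice. The left renal pedicle was clamped for 16, 18, 20, 22, 24, 26, 28 or 30 min, or for 0 min in the sham group, and the kidney was taken after 24 h of reperfusion. Whether the sham mice also lost the right kidney was not stated in the sources used here. The sex and age of the mice were not given there either. Expression was given as FPKM, a read density corrected for transcript length and sequencing depth, a scale on which levels of different genes can be compared per length.

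Cholesterol is built from acetyl-CoA in the endoplasmic reticulum through mevalonate, squalene and lanosterol, and fatty acids are built from the same acetyl-CoA in the cytosol. The transcription factors SREBP-2 and SREBP-1 drive the sterol and the fatty acid enzymes, and they are held inactive in the endoplasmic reticulum by Insig proteins when sterols are plentiful. Proximal tubule cells, the most abundant cells of the kidney cortex and the ones most exposed to ischemia, live mainly on fatty acid oxidation.

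A limma adjusted p under 0.05 with no fold threshold was a rule chosen after seeing the data. By it Fdft1 and Fasn were higher than in sham kidneys at all 6 times from 16 to 26 min. Hmgcs1 was higher at 4 of them and Sqle at 2, while Idi1, Insig1, Scd1 and Scd2 passed at none. The rule took 9.43% to 14.9% of all genes as higher. With a 2-fold threshold added, 0 of the 8 genes were called at these times. The mean of 7 genes exceeded the sham mean at all 6 times from 16 to 26 min, by less than 2-fold in the fit, and Scd1 was the exception. From 26 to 28 min the mean of all 8 genes was lower, and at 30 min it was below sham in all 8. For none of these directions of means was the share of all genes counted. The largest difference was that of Scd1, which was at 34.0 ± 3.63 FPKM (SD, n = 3) at 26 min and at 5.17 ± 1.60 FPKM (SD, n = 3) at 28 min. In whole kidney RNA, fewer cells of a type and less RNA per cell cannot be told apart.

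SREBPs act at short promoter elements together with NF-Y, which reads CCAAT, and Sp1, which reads GGGCGG, and SREBPs can also read the E-box CACGTG. The RefSeq promoters (GRCm38.p6, 250 bases before to 50 after the start) were searched on both strands for these letters and for the sterol regulatory element TCACNCCAC. Promoters were matched for 4 of the 8 genes, Hmgcs1, Idi1, Insig1 and Fasn. The start used for Fasn lies within its RefSeq gene span, which reaches chr11:120825166. Bases upstream of that end were not searched. Of the 4 promoters searched, the sterol element was present in 1, that of Hmgcs1, against 1.24% of all 32851 promoters. CCAAT was present in all 4 against 37.4%, GGGCGG in 3 against 35.7% and CACGTG in 1, that of Insig1, against 7.15%. A looser element, TCACNCNAC, which also counts every TCACNCCAC, was found in the same promoter alone and in 2.7% of all promoters. The stretches below are shown because they hold the matches, which are in capitals on either strand, and each reads 5′ to 3′ on the strand of its gene. That of Hmgcs1 runs from -250 to -1 (chr13:119690101-119690350, plus strand) with the sterol element at -137, that of Insig1 from -250 to -50 (chr5:28071162-28071362, plus strand) with the E-box at -101, and that of Fasn from -75 to -46 (chr11:120824593-120824622, minus strand) around overlapping CCAAT letters on both strands.
Hmgcs1: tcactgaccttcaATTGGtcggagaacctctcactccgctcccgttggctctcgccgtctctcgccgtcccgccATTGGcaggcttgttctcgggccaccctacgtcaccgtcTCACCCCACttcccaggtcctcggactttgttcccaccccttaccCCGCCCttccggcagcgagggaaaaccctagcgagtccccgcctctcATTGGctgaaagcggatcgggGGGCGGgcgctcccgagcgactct
Insig1: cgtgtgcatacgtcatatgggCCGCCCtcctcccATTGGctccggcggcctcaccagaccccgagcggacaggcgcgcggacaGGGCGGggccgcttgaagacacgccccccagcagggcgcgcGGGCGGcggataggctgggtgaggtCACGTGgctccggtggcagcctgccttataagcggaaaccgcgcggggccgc
Fasn: acggcctcggtgtCCAATTGGtttcgatgt
A match is a run of letters and not a measured binding site.

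Several facts of the libraries bear on the values. The summed FPKM per kidney was 512453 to 554036, and the relative depth read from the steps of low values was 0.954 to 1.03 times the median kidney. Proximal tubule markers, 10 transporters and receptors such as Slc34a1 and Lrp2, summed to 5133 to 5699 FPKM in sham kidneys, 3382 to 5157 at 16 to 26 min, 1945 to 2220 at 28 min and 1177 to 1356 at 30 min, and none of the 10 was at 0. At 30 min against sham 9 of the 10 were called lower, against 5.59% of all genes. Markers of thick ascending limb and distal tubule summed to 2025 to 2244 FPKM in sham kidneys and 687 to 977 at 28 min. At 30 min they summed to 669, 685 and 2479, where replicate 3 stood apart. Of these 7 markers 5 were called lower at 28 and at 30 min, where 8.48% and 10.7% of all genes were called. Endothelial markers summed to 75.6 to 89.6 in sham kidneys and 100.5 to 162 at 30 min, and neutrophil markers to 5.27 to 10.1 and 19.7 to 28.3. At 30 min against sham 0 of 7 endothelial and 2 of 6 neutrophil markers were called higher, where 10.7% of all genes were called. The sum of 5 tubular injury genes was 15.8 to 90.1 in sham kidneys and 2518 to 4918 at 30 min. Fat markers stood out in 3 kidneys, where Adipoq, the adipocyte hormone adiponectin, was at 24.5 (18 min, replicate 1), 7.03 (20 min, replicate 1) and 19.3 FPKM (22 min, replicate 3) against at most 1.79 in the other 24. The sum of 10 adipocyte markers was 262 to 329 in sham kidneys, 116 to 755 at 16 to 26 min, 65.9 to 80.3 at 28 min and 120 to 154 at 30 min, and in some kidneys Adipoq, Plin1, Retn, Cfd, Lep and Ucp1 were at 0. In sham kidneys Lpl, at 211 to 279 FPKM, made up most of that sum while Adipoq was at most 0.2, so the sum there is not a measure of fat. Markers of adrenal cortex, another steroid-making tissue, summed to 0.77 to 1.59 FPKM. The part of cell composition in the results below was not tested.

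Hmgcs1, the cytosolic synthase that makes HMG-CoA at the head of the mevalonate pathway, had the highest FPKM of the 8 in 27 of 27 kidneys. It was at 178, 154 and 133 FPKM in the sham kidneys, at 177 to 343 (median 221) in the 18 kidneys of 16 to 26 min, at 107, 120 and 122 at 28 min and at 65.6, 54.5 and 49.0 at 30 min. Of the 18 kidneys, 17 were above every sham kidney, and all 6 kidneys of 28 and 30 min were below every sham kidney. The log2 fold change against sham was 0.62 at 26 min (SE 0.20, limma adjusted p = 0.0204) and -1.39 at 30 min (SE 0.20, limma adjusted p = 5.51e-06). From 26 to 28 min it was -0.999 (limma adjusted p = 0.00146), just short of the 2-fold threshold, and from 28 to 30 min it was -1.01 (limma adjusted p = 0.00268). The last step was past the threshold by little, and the call was lost without any 1 of replicates 2 and 3 of 28 min and replicates 2 and 3 of 30 min (log2 fold changes -0.94 to -0.99).

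Idi1, the isomerase that makes the isoprene unit used for squalene, had the lowest FPKM of the 8 in 20 of 21 kidneys up to 26 min. It was at 12.8, 7.14 and 6.28 FPKM in sham kidneys, at 6.34 to 20.0 (median 12.1) at 16 to 26 min, at 5.29, 5.76 and 8.32 at 28 min and at 3.93, 2.32 and 2.62 at 30 min. Sham replicate 1 lay within the range of 16 to 26 min, and only 6 of the 18 kidneys exceeded it. On the log2 scale the fold change was 0.36 at 26 min (SE 0.28, limma adjusted p = 0.384) and -1.35 at 30 min (SE 0.28, limma adjusted p = 0.000447). Of its transcript 50-mers, 20% also occur in other genes, led by Gm13502, and 9.22% of its exon bases overlap Gm48574 on the other strand, so some reads could belong to these.

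Fdft1, squalene synthase, the first enzyme committed to sterols, had the smallest adjusted p-value of the 8 at each of the shorter times. It was at 13.9, 11.7 and 13.2 FPKM in sham kidneys and at 19.3 to 31.1 (median 24.9) in all 18 kidneys of 16 to 26 min, with no overlap. The log2 fold change was 0.69 to 0.91 at the 6 times, with limma adjusted p-values of 0.000117 to 0.00142, and none reached 2-fold in the fit. Means of FPKM itself were 12.9 in sham kidneys, 26.1 at 16 min, 27.3 at 24 min and 23.4 to 25.1 at the other times. Those of 16 and 24 min were just over 2-fold of sham. At 28 min Fdft1 was at 14.3, 18.5 and 20.1 FPKM, still above every sham kidney, and at 30 min at 13.3, 11.1 and 12.3, back in the sham range but for replicate 2. The log2 fold changes from sham were 0.26 at 28 min (SE 0.14, limma adjusted p = 0.14) and -0.18 at 30 min (SE 0.14, limma adjusted p = 0.29). Of the exon bases of Fdft1, 18.3% overlap Ctsb on the other strand. Whether counting used strand was not given in the sources used here. Ctsb was at 426 to 522 FPKM in sham kidneys, 673 to 814 at 26 min and 757 to 1082 at 30 min, so its mean was higher at 26 min than in sham kidneys, as was that of Fdft1, and from 26 to 30 min its mean was higher where that of Fdft1 was lower. Its part in the values of Fdft1 was not tested.

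Sqle, squalene epoxidase, a rate-limiting step of sterol synthesis, was at 37.1, 41.2 and 41.3 FPKM in sham kidneys, at 44.6 to 83.7 (median 57.2) at 16 to 26 min, at 34.6, 45.2 and 46.2 at 28 min and at 28.2, 21.7 and 18.9 at 30 min. All 18 kidneys of 16 to 26 min lay above sham and all 3 of 30 min lay below, while those of 28 min fell on both sides. Against sham, the log2 fold change was 0.53 at 26 min (SE 0.18, limma adjusted p = 0.0307) and -0.87 at 30 min (SE 0.18, limma adjusted p = 0.000369). The direct difference of 30 from 26 min, a comparison added after seeing the data, was -1.40 on the log2 scale.

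Insig1, the sterol-regulated anchor that retains SREBPs and is itself an SREBP target, spread widely between mice. It was at 22.8, 18.6 and 23.2 FPKM in sham kidneys, at 20.3 to 57.5 (median 32.1) at 16 to 26 min, at 10.2, 17.0 and 19.6 at 28 min and at 10.1, 6.44 and 8.27 at 30 min. At 16 min alone the 3 kidneys were at 37.4, 20.3 and 57.5. Of the 18 kidneys, 15 were above every sham kidney, and none of the 6 single-time comparisons passed (limma adjusted p = 0.158 to 0.625). The log2 fold change was -1.38 at 30 min (SE 0.30, limma adjusted p = 0.000686) and -0.999 from 26 to 28 min (SE 0.30, limma adjusted p = 0.0261).

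**Figure D1:**
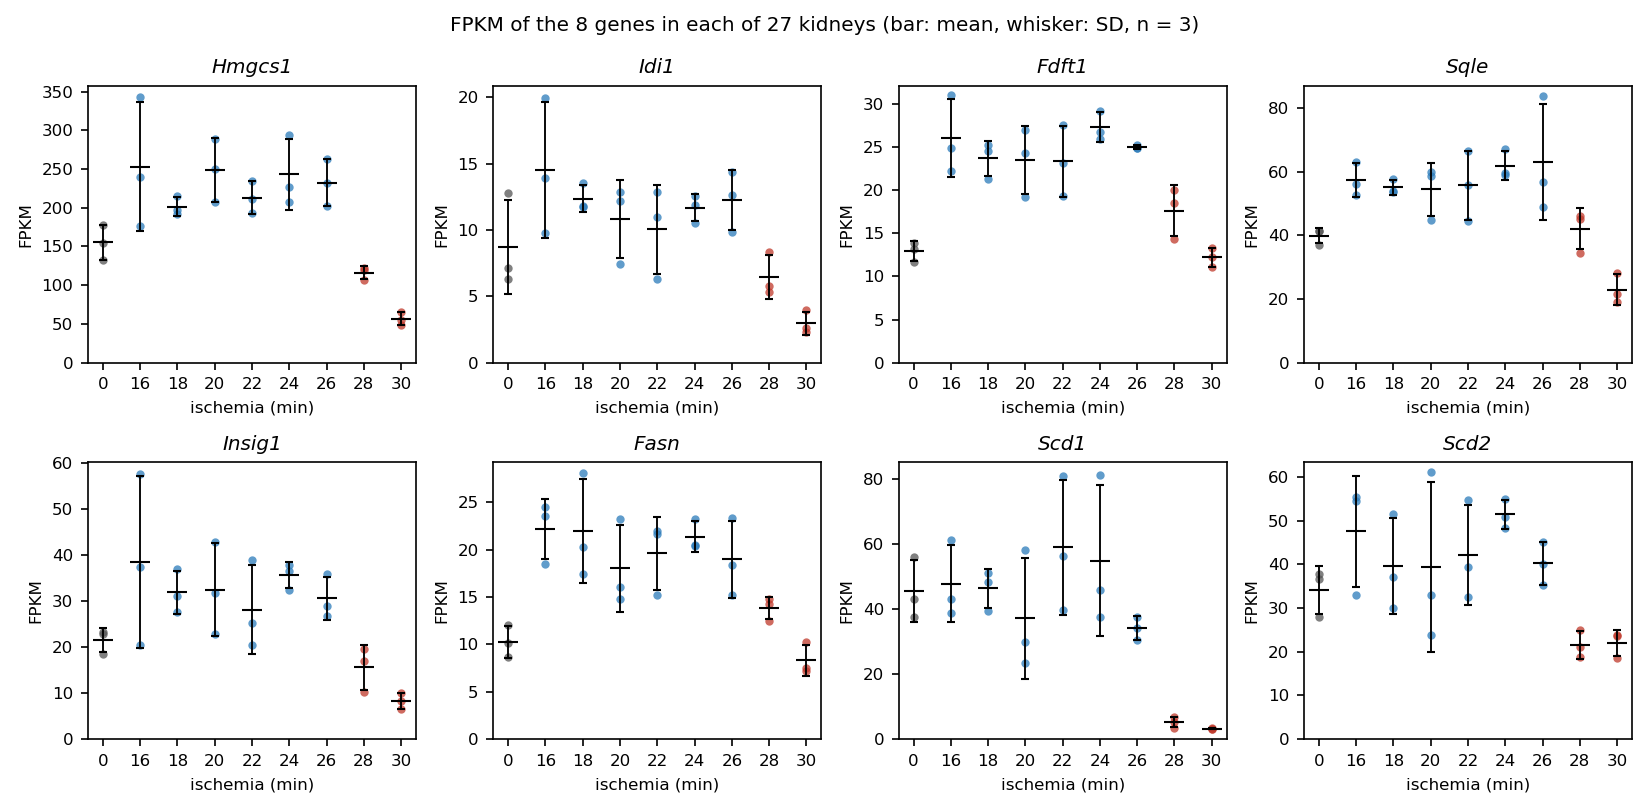
FPKM of the 8 genes against ischemia time in min, with 1 point per kidney (grey sham, blue 16 to 26 min, red 28 and 30 min), a bar at the mean and a whisker of 1 SD (n = 3). Fdft1, Sqle and Fasn lie above sham in all 18 kidneys of 16 to 26 min, and Scd1 drops to 3.48 to 6.65 FPKM at 28 min.

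Fasn, fatty acid synthase, which builds palmitate, was likewise above sham at the shorter times. It was at 12.0, 8.67 and 10.1 FPKM in sham kidneys, at 14.8 to 28.1 (median 20.4) in the 18 kidneys of 16 to 26 min, at 12.5, 14.8 and 14.3 at 28 min and at 10.2, 7.55 and 7.15 at 30 min. All 18 kidneys and the 3 of 28 min were above every sham kidney, and at 30 min 2 of 3 were below. The log2 fold change against sham was 0.64 to 0.94 at the 6 times (limma adjusted p = 0.00193 to 0.0219), and it was -0.39 at 30 min (SE 0.19, limma adjusted p = 0.102). Means of FPKM itself were 10.3 in sham kidneys and 22.2, 22.0 and 21.4 at 16, 18 and 24 min, which is over 2-fold of sham. At 20, 22 and 26 min they were 18.0, 19.6 and 19.0, under 2-fold. The highest value, 28.1 FPKM, came from replicate 1 of 18 min, the kidney with the most Adipoq. Without the 3 kidneys with fat markers, an alternative chosen after seeing the data, Fasn was at 0.73, 0.77 and 0.68 at 18, 20 and 22 min (limma adjusted p = 0.0194, 0.0202 and 0.0257).

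Scd1 and Scd2 are stearoyl-CoA desaturases, which put the double bond into stearate and palmitate, and they lie 87585 bases apart on chromosome 19. Scd1 was at 55.9, 42.9 and 37.6 FPKM in sham kidneys, at 23.4 to 81.0 (median 41.4) at 16 to 26 min, at 6.65, 5.38 and 3.48 at 28 min and at 3.11, 3.38 and 2.97 at 30 min. Among the 18 kidneys 5 were above and 6 below every sham kidney, and at 26 min all 3 were below. Against sham, the log2 fold change was -0.47 at 26 min (SE 0.30, limma adjusted p = 0.269), -3.01 at 28 min (SE 0.30, limma adjusted p = 1.49e-07) and -3.54 at 30 min (SE 0.30, limma adjusted p = 9.18e-09). From 28 to 30 min the difference was -0.53 (SE 0.30, limma adjusted p = 0.288).

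Scd2 was at 37.8, 27.9 and 36.7 FPKM in sham kidneys, at 23.9 to 61.2 (median 42.7) at 16 to 26 min, at 21.03, 25.01 and 18.77 at 28 min and at 23.5, 18.5 and 23.8 at 30 min. The kidneys of 28 and 30 min all lay below sham, and the log2 fold changes of -0.76 and -0.70 (SE 0.27 each) had limma adjusted p-values of 0.0244 and 0.0356 without reaching 2-fold. The ratio of Scd1 to Scd2 was 0.67 to 1.54 in the 21 kidneys up to 26 min, 0.185 to 0.316 at 28 min and 0.125 to 0.183 at 30 min. The log2 ratio differed by -1.86 between 28 and 26 min, with an exact permutation p = 0.1 (two-sided, n = 3 each), the smallest value that 3 against 3 can give. The paralogs Scd3 and Scd4 were at 0.06 to 0.3 and 0.18 to 0.73 FPKM, and 4.61% of the 50-mers of Scd1 and 4.01% of those of Scd2 occur in other genes.

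**Figure D2:**
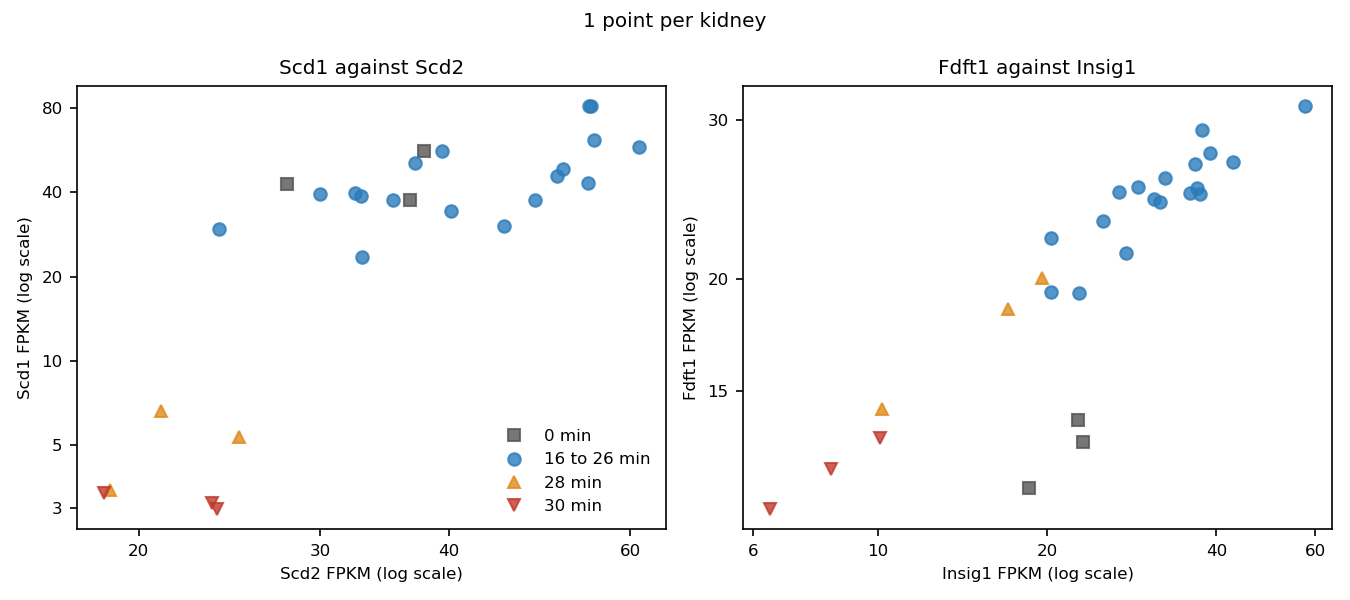
FPKM of Scd1 against Scd2 (left) and of Fdft1 against Insig1 (right), both axes on a log scale, 1 point per kidney. The ratio of Scd1 to Scd2 is 0.67 to 1.54 up to 26 min and at most 0.316 at 28 and 30 min. Fdft1 is above sham in all 18 kidneys of 16 to 26 min, and so also in the 3 whose Insig1 lies within the sham range.

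A gene was called a differentially expressed gene (DEG) when its limma adjusted p was under 0.05 and it had changed more than 2-fold, that is by over 1 on the log2 scale. At 16, 18, 20, 22, 24 and 26 min against sham, limma called 0 of the 8 genes, where it called 2.25%, 3.06%, 2.51%, 3.29%, 3.12% and 3.77% of all 18188 genes tested. At an unadjusted p under 0.05 the counts of the 8 were 4, 2, 3, 3, 4 and 4, against 31.9%, 38.1%, 35.2%, 39.2%, 38.4% and 39.8% of all genes. With the adjusted p alone, an alternative chosen after seeing the data, 3, 2, 3, 2, 4 and 4 were higher and 0 lower, with Fdft1 and Fasn at every time. That rule took 9.43%, 12.6%, 10.7%, 13.4%, 13.6% and 14.9% of all genes as higher at these times. The groups of 16 to 26 min and of sham did not overlap for 3 of the 8 genes, and 12.8% of all genes were likewise higher in all 18 kidneys.

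Within 16 to 26 min the level of the 8 genes was not seen to depend on the length of ischemia. The fitted slopes ran from -0.022 log2 units per min (Idi1) to 0.015 (Sqle), and the smallest limma adjusted p was 0.812. Limma called 0 of 8 slopes, where 0.011% of all genes were called, and 0 of 8 at 26 against 16 min, where 0% were. At an unadjusted p under 0.05 both counts were also 0, where 8.81% of all genes had such a slope and 9.44% such a difference. The 8 genes varied between mice of the same time by 0.18 (Fdft1) to 0.39 (Scd1) log2 units, against a median of 0.11 over all genes.

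At 28 min against sham, 1 of 8 was called, Scd1, with 8.48% of all genes called. At 30 min 4 of 8 were lower, Hmgcs1, Idi1, Insig1 and Scd1, and 0 were higher, and without replicate 3 of 30 min 4 were called. Of all genes 10.7% were called at 30 min, 5.59% as lower. Between 26 and 28 min 1 of 8 was called, again Scd1, against 1.5% of all genes, and with the adjusted p alone 7 of 8 were lower, against 8.52% of all genes. By the same rule 2 of 8 were lower at 28 min (23.6% of all genes), 6 of 8 at 30 min (25.4%) and 5 of 8 between 28 and 30 min (6.77%). Between 26 and 28 min Fasn was the gene that missed it (log2 fold change -0.43, SE 0.19, limma adjusted p = 0.134). Every kidney of 28 min lay below every kidney of 26 min for 8 of 8 genes, and the same held for 16.4% of all genes. Between 28 and 30 min 1 of 8 was called, Hmgcs1, against 1.05% of all genes. The median log2 fold change of the 8 was 0.46 at 26 min, -0.43 at 28 min and -1.11 at 30 min against sham, and that of all genes was -0.0040, 0 and 0.00077.

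A direct comparison of 30 with 26 min, added after seeing the data, called 6 of 8 genes lower, Hmgcs1, Idi1, Sqle, Insig1, Scd1 and Fasn, where 5.19% of all genes were called and 3.13% were lower. The log2 fold changes ranged from -3.07 for Scd1 (limma adjusted p = 2.68e-07) to -0.84 for Scd2 (limma adjusted p = 0.0179). Fdft1, at -0.97 (limma adjusted p = 1.93e-05), stayed just under 2-fold in the fit. The call of Fasn, at -1.09, was lost without replicate 3 of 26 min (-0.94) or replicate 3 of 30 min (-0.98).

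**Figure D3:**
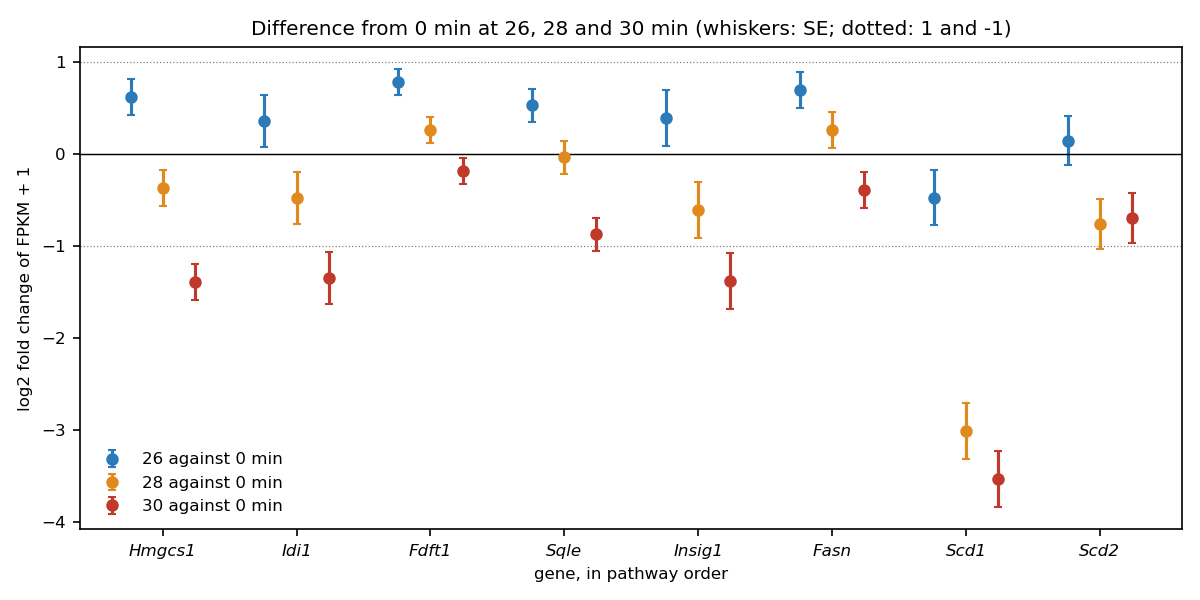
Log2 fold change of FPKM + 1 against sham at 26, 28 and 30 min for the 8 genes, with whiskers of 1 SE and dotted lines at 1 and -1. Hmgcs1, Sqle and Insig1 lie above 0 at 26 min and at -1.39, -0.87 and -1.38 at 30 min, and Scd1 lies at -3.01 by 28 min.

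Across the 18 kidneys of 16 to 26 min many of the 8 genes varied together from mouse to mouse. Of the 28 pairs among the 8 genes, 17 had a Benjamini-Hochberg adjusted permutation p under 0.05 for Pearson's r, and 9 of the 10 pairs among Hmgcs1, Idi1, Fdft1, Sqle and Insig1 did. The lowest such r was 0.53, and 6.21% of all pairs among 12346 genes had an r as high. The highest was that of Fdft1 with Insig1, with r = 0.88 (permutation p = 1e-05, the smallest 100000 resamples can give, adjusted p = 0.00028) and rho = 0.85 (permutation p = 3e-05, adjusted p = 0.00056). Leaving out the 2 kidneys farthest from the median of Fdft1 gave r = 0.79, and leaving out the 3 kidneys with fat markers gave r = 0.88. Fdft1 with Scd2 had r = 0.76 (permutation p = 0.00012, adjusted p = 0.00168), rho = 0.82 (permutation p = 4e-05, adjusted p = 0.00056) and r = 0.85 without the 2 farthest kidneys, so the high pairs were not all pairs of sterol genes. Some pairs rested in part on 2 kidneys: Hmgcs1 with Fdft1 went from r = 0.71 to 0.47 and Idi1 with Fdft1 from 0.73 to 0.44 when the 2 farthest were left out. Scd1 with Hmgcs1 had r = -0.18 (permutation p = 0.479, adjusted p = 0.516), rho = -0.15 (permutation p = 0.558, adjusted p = 0.601) and r = -0.28 without the 2 farthest kidneys. Scd1 with Scd2 had r = 0.64 (permutation p = 0.0048, adjusted p = 0.0149), rho = 0.64 (permutation p = 0.00558, adjusted p = 0.0181) and r = 0.58 without the 2 farthest kidneys.

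The genes most like each of the 8 over all 27 kidneys, by Pearson's r of log2(FPKM + 1) among 12338 genes, were in part sterol genes themselves. These values are a description, since all points share the ischemia groups. Mvd was among the 3 nearest of Hmgcs1 (r = 0.95), Sqle (0.94), Idi1 (0.92) and Insig1 (0.94), and Stard4 was the nearest of Hmgcs1 (0.95). Nsdhl and Dhcr7 were among the 3 nearest of Fdft1 (0.95 each), and Dhcr7 and Srebf1 among those of Fasn (0.91 each). The nearest of Scd1 were Ngef, Thap4 and Pcbd1 (0.96 each), and Scd2 was nearest to Srebf1 (0.89).

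The other genes of the pathway were read from lists that include the members. The counts below stand against 3.77%, 8.48% and 10.7% of all genes called at 26, 28 and 30 min, and those at an unadjusted p under 0.05 at 26 min against 39.8%. Of the 13 genes of mevalonate and squalene synthesis, 1 was called higher at 26 min against sham and 0 lower, and at 30 min 0 were higher and 4 lower, with medians of 0.53 and -0.26. Mvd, which decarboxylates mevalonate diphosphate, was at -1.43 at 30 min (limma adjusted p = 2.88e-07). The gene higher at 26 min was Fdps, farnesyl diphosphate synthase, named after its value was seen, at 1.35 (limma adjusted p = 7.01e-05).

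Downstream of lanosterol, 1 of 10 genes was called higher and 1 lower at 26 min, and 0 higher and 2 lower at 30 min, with medians of 0.41 and -0.35. Cyp51, lanosterol demethylase, took another course than the members around it. It was at 69.6 to 87.2 FPKM in sham kidneys and already at 28.3 to 74.0 (median 39.9) at 16 to 26 min, then at 13.0 to 20.4 at 28 min and at 8.73 to 11.5 at 30 min. Its log2 fold change was -1.17 at 26 min (limma adjusted p = 0.000739) and -2.94 at 30 min (limma adjusted p = 2.71e-09). Ebp, the sterol isomerase, was at -0.42 at 26 min (limma adjusted p = 0.000423) and -1.11 at 30 min (limma adjusted p = 6.25e-10). The gene called higher at 26 min was Msmo1, named after its value was seen, at 1.10 (limma adjusted p = 0.000545).

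Of the 29 genes of fatty acid synthesis, elongation and desaturation, 28 were tested. At 26 min 0 were called, with 16 at an unadjusted p under 0.05, and at 28 and at 30 min 1 was higher and 4 were lower. The median was -0.041 at 26 min and -0.33 at 30 min. Acss2, which makes acetyl-CoA from acetate, was at 100 to 122 FPKM in sham kidneys and 13.1 to 14.9 at 30 min, a log2 fold change of -2.90 (limma adjusted p = 3.62e-11). Fads2, the delta-6 desaturase, was at -2.31 (limma adjusted p = 2.35e-10), and Acacb, the mitochondrial acetyl-CoA carboxylase, was at -1.19 at 28 min (limma adjusted p = 0.000827). Hacd1, a dehydratase of fatty acid elongation, was the gene called higher at 30 min, at 1.17 (limma adjusted p = 5.69e-06).

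Among 14 regulators, 0 were called at 26 min, with 5 at an unadjusted p under 0.05, and 0 were higher and 2 lower at 30 min, Insig1 and Mylip. Srebf2, which encodes SREBP-2, was at 17.6 to 20.6 FPKM in sham kidneys and had log2 fold changes of 0.55 at 26 min (limma adjusted p = 2.46e-05), 0.27 at 28 min (limma adjusted p = 0.00382) and 0.14 at 30 min (limma adjusted p = 0.103). Srebf1, which encodes SREBP-1, was at 0.50 at 26 min (limma adjusted p = 0.0816) and -0.68 at 30 min (limma adjusted p = 0.0111). Mylip, a ubiquitin ligase induced by the sterol-sensing LXR receptors, was at 28.0 to 36.0 FPKM in sham kidneys and fell at 16 min (log2 fold change -1.46, limma adjusted p = 1.57e-05) and 30 min (-1.22, limma adjusted p = 4.23e-06).

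Of the 17 genes of cholesterol uptake, storage and efflux, 1 was called higher and 0 lower at 26 and at 28 min. At 30 min 1 was higher and 1 lower. The lower one was Stard4, a sterol carrier, at 14.9 to 17.9 FPKM in sham kidneys and 5.96 to 10.1 at 30 min (log2 fold change -1.15, limma adjusted p = 3.02e-06).

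Of 15 genes of triglyceride synthesis and lipid droplets, 0 were called at 26 min, with 9 at an unadjusted p under 0.05, while 3 were higher and 1 lower at 30 min. Plin2, the coat protein of lipid droplets, was at 42.7 to 57.5 FPKM in sham kidneys, 207 to 289 at 28 min and 264 to 653 at 30 min, a log2 fold change of 2.91 (limma adjusted p = 4.59e-09). Hilpda, an inhibitor of lipid droplet lipolysis, was at 1.32 (limma adjusted p = 8.17e-08) and Lpin3, a phosphatidate phosphatase, at 1.16 (limma adjusted p = 1.24e-07). Lpin1, another phosphatidate phosphatase, was at -1.42 (limma adjusted p = 3.27e-06).

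**Figure D4:**
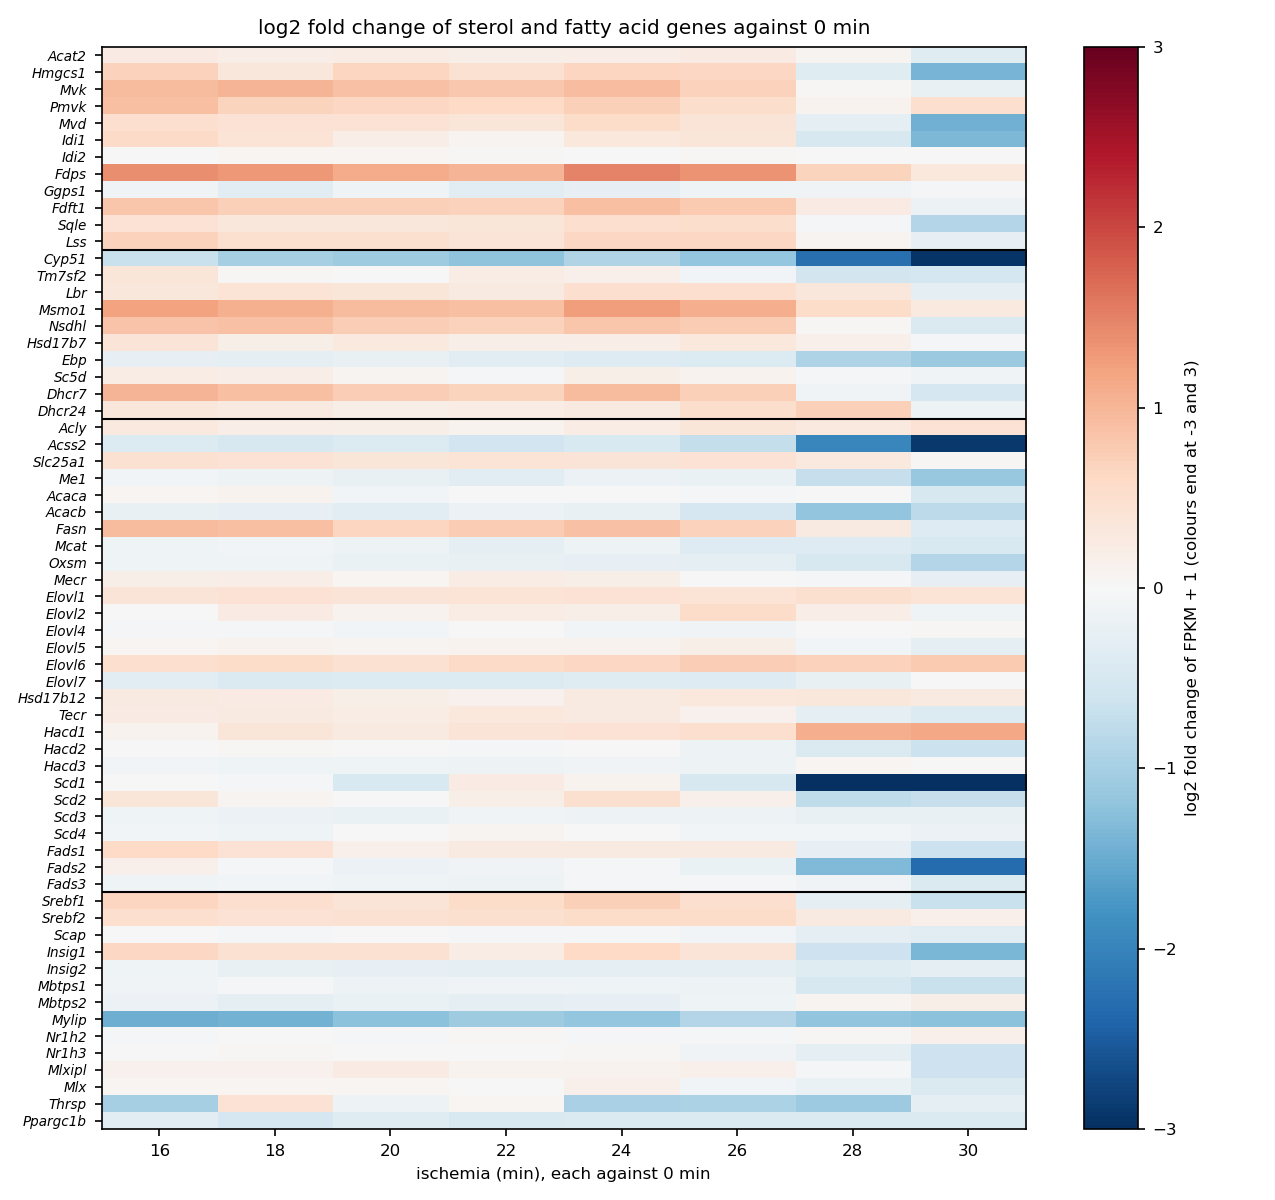
Log2 fold change of FPKM + 1 against sham at each of 8 ischemia times (columns) for genes of mevalonate and squalene synthesis, of the steps from lanosterol, of fatty acid synthesis and of regulation (rows, from top, split by black lines), with colours ending at -3 and 3. Fdps, Fdft1, Msmo1 and Fasn are red up to 26 min, Cyp51 and Mylip are blue at all times, and Scd1 and Acss2 turn dark blue at 28 and 30 min.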

How the data were processed

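RNA-Seq of the left kidney was done by the authors on the DNBSEQ-G400 platform. As deposited by the authors, the table gives 1 linear FPKM value, rounded to 2 decimals, for each symbol in each kidney. Per the labels, the submitters' processing notes name Bowtie2, RSEM and DESeq2 and the build GRCm38.p6; versions, annotation and strand are not given in the sources used here. The quantile normalization in the study's methods is not in these values. All 27 columns of per-sample values were used, so the number of unused ones was 0. No file of read counts was used, and precision was judged from the 3 mice per time.

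Values were put on a log2(FPKM + 1) scale (pseudocount 1), quantile normalized and fitted in limma 3.58.1 (R 4.3.3) with a mean for each ischemia time. The fit held the 18188 genes detected, at over 0 FPKM, in 3 or more kidneys. Fold changes on this scale understate changes of low genes. All 8 genes passed the filter. DEGs passed 0.05 after Benjamini-Hochberg adjustment and changed by more than 1 on the log2 scale in either direction. The trend from 16 to 26 min was a slope on 18 kidneys. The Scd1 to Scd2 ratio was tested by an exact permutation test. Groups come from the labelled ischemia time, and replicates are different mice.

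In simulated data for 28 against 0 min, 198 of 200 genes changed by 2 log2 units were recovered with 0 false calls among 18188 genes. Of the 8 genes only Scd1 differed from sham by that much, and recovery of changes near the 2-fold threshold was not tested. For the trend, 200 of 200 genes with a slope of 0.2 log2 units per min were recovered with 15 false calls. That slope is far steeper than those fitted for the 8 genes (-0.022 to 0.015), and recovery of slopes that small was not tested. Alternatives were another pseudocount, a fit with no quantile step, values rescaled to a constant sum, a stricter and no filter, only the groups compared, a mean-variance trend, a block for the replicate number and the fits without each mouse. Named genes were the 8 members, Srebf1 and Srebf2, up to 3 lower and 3 higher DEGs per list at 28 or 30 min against sham or 28 against 26 min, and the 3 genes nearest each member; some genes that this rule takes are not reported here. The members and lists were chosen with earlier results of these data known. Promoters are from RefSeq, and overlaps and 50-mers from GENCODE M21. Figures were drawn with matplotlib 3.10.9.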

Additional observations from a re-analysis of the deposited data

Results flagged for a closer look

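Hmgcs1, Sqle and Insig1 were picked out because their groups moved in opposite directions: every kidney of 26 min was above every sham kidney and every kidney of 30 min was below. The pick also asked for a limma adjusted p under 0.05 at 30 against 26 min. The same positions of the kidneys, counted without that condition, held for 1.12% of all 18188 genes tested. The difference of 30 from 26 min was -2.01 on the log2 scale for Hmgcs1, -1.40 for Sqle and -1.77 for Insig1, given without a test here because the choice of these genes fixes its direction. The sum of 10 proximal tubule markers was 3382 to 4479 FPKM in the kidneys of 26 min and 1177 to 1356 FPKM in those of 30 min, and its part in these differences was not tested.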

How the results depend on the processing

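Several fold changes of the 8 genes lay near the 2-fold threshold, and counts of the genes called moved. A pseudocount of 0.1 FPKM gave 3 at 28 against 26 min and 2 at 30 against 28 min. Without quantile normalization 1 was called at 16, at 18 and at 24 min against sham, and with FPKM rescaled to a constant sum 1, 1 and 2, and 3 at 28 against 26 min. Across all comparisons these scalings moved the median of all genes by at most 0.075 log2 units. Fitting only the groups compared gave 0 at 30 against 28 min. With the adjusted p alone, chosen after seeing the data, the counts were 3, 2, 3, 2, 4 and 4 from 16 to 26 min, 2 at 28 min, 7 at 28 against 26 min and 5 at 30 against 28 min. Leaving out 1 mouse gave 0 to 2 at 16 min, 0 to 1 at 18 min, 1 to 4 at 28 against 26 min (2 without replicate 1 of 26 min, 4 without replicate 2 or 3 of 28 min) and 0 to 2 at 30 against 28 min (0 without replicate 2 or 3 of either time, 2 without replicate 1 of 30 min). At 16 min the count was 1 without sham replicate 1 (Fasn) and 2 without replicate 2 of 16 min (Insig1 and Fasn), and at 18 min it was 1 without sham replicate 1 or replicate 2 of 18 min (Fasn). Other counts stayed within 1.5 times. Small differences changed sign: Scd1 at 16 min (0.061 and 0.069 under the 2 other scalings, -0.19 to 0.15 leaving out 1 mouse), Sqle at 28 min (0.064, 0.050, -0.10 to 0.099) and Scd2 at 30 against 28 min (-0.027 to 0.18). The cause was not tested.

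Without the 3 kidneys with fat markers, an alternative chosen after seeing the data, 0 of 8 were still called at 18, 20 and 22 min and in the trend. The labels give same-numbered mice nothing in common but the number, and whether they shared anything else was not tested. Their deviations from the group means correlated at -0.30 to 0.27, and in no comparison did all pairs correlate above 0.1. The replicate block left every count of the 8 as it was (4 at 30 min against sham, 1 at 28 min, 0 up to 26 min).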
